A study of Mus musculus with 5 samples.

Results

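Kruppel-like factors are zinc-finger transcription factors that bind GC-rich and CACCC elements of promoters. In the gut, Klf4 is a factor of differentiating surface epithelium and Klf5 of proliferating crypt cells, Klf2 marks quiescent endothelium and naive lymphocytes, and Klf6, Klf10 and Klf11 are early response genes that growth factors and TGF-beta can induce. The genes described are Klf2, Klf3, Klf4, Klf5, Klf6, Klf10, Klf11, Klf13 and Klf15, chosen by name as 9 of the 22911 gene symbols with a probe. They were measured by 11 of the 56605 probes of a single-colour Agilent mouse array. Klf3 and Klf10 had 2 probes each and the other 7 genes had 1.

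The study asked which colon genes respond to IL-11. Whole colon of wild-type C57BL/B6 mice was taken at 3 hr after an intravenous injection of NT-3N, a modified human IL-11 that acts as an agonist of the IL-11 receptor (3 arrays), and was compared with colon of Control mice (2 arrays). The study's text gives the injected mice as 8 weeks old and calls the Controls untreated, so injection and agonist cannot be told apart, and labels and methods differ on the dose. Values are log2 signals after quantile normalization, and the groups were compared with limma over 32917 features. Because different probes hybridise differently, the level of one gene is not set against that of another.

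The arrays carried colon RNA. All 6 epithelial markers, all 3 goblet cell markers and all 5 smooth muscle markers were well above background on every array. The groups were set apart on them by Socs3, a feedback inhibitor of cytokine signalling, which was higher in NT-3N by 2.71 on the log2 scale (95% interval 2.28 to 3.13, limma adjusted p = 0.0087). Between arrays the correlation over features lay between 0.980 and 0.992, and Control replicate 1 had the lowest values. Whole colon is a mixture, so fewer cells of a type and less RNA per cell cannot be told apart.

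No Kruppel-like factor gene passed the test between NT-3N and Control. All 9 were well above background on all 5 arrays and all 9 were tested, and limma called 0 of them at an adjusted p under 0.05, where it called 0.143% of all features. At an unadjusted p under 0.05 the count was also 0, against 9.62% of all features, and the local-pooled-error test named in the methods called 0. Of all features 0.125% were called higher and 0.0182% lower, and 4.95% were higher and 4.67% lower at the unadjusted threshold. In sign 7 of the 9 genes were higher in NT-3N and 2, Klf4 and Klf15, were lower. Their median log2 fold change was 0.047, beside -0.019 over all features, and the median size of the change without its sign was 0.11, beside 0.15 over all features. The groups' arrays did not overlap for 2 genes, Klf5 and Klf11, against 28.4% of all features. Both were higher in NT-3N. Over all features 13.5% were without overlap and higher in NT-3N, and 14.8% were without overlap and lower.

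**Figure D1:**
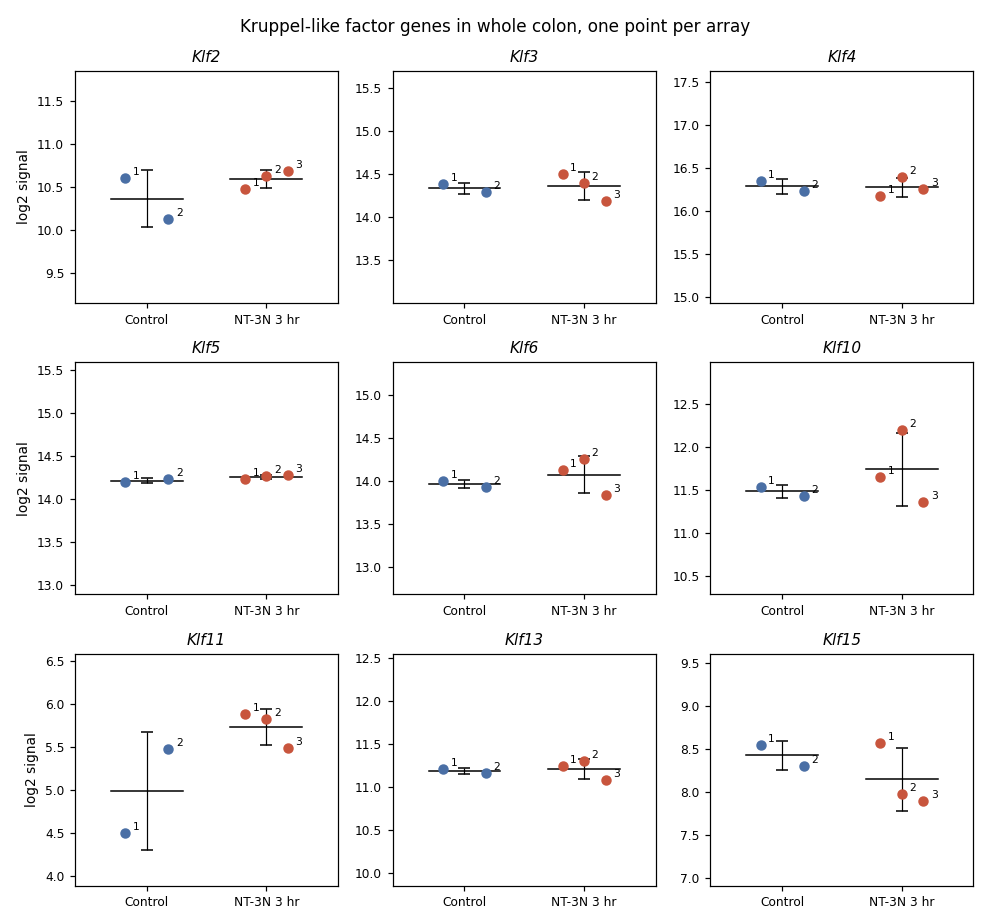
Log2 signal (vertical axis) of the 9 Kruppel-like factor genes on the arrays of each group (horizontal axis), with 1 point per array numbered by replicate, a line at the group mean and bars of 1 SD. Every panel spans the same log2 range. Klf5 is nearly level over all 5 arrays, Klf10 is highest in NT-3N replicate 2, and Klf11 is lowest in Control replicate 1.

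The epithelial factors were the most even. Klf4, which encodes a factor that restrains growth and promotes differentiation of colonocytes and goblet cells, had log2 signals of 16.35 and 16.23 in Control and of 16.18, 16.40 and 16.25 in NT-3N. The groups overlapped fully. Klf4 had a log2 fold change of -0.012 (standard error 0.086), and its 95% interval corresponded to 0.859-fold to 1.14-fold. The sign turned under several settings, among them median scaling. Klf5, which encodes a factor of crypt cell proliferation, had 14.20 and 14.23 in Control and 14.24, 14.27 and 14.28 in NT-3N. All NT-3N arrays lay above the Controls, but the whole range over the 5 arrays was 0.082 on the log2 scale. The fitted difference of 0.047 (limma adjusted p = 0.85) had a 95% interval from 0.926-fold to 1.15-fold. The summed signal of the 6 epithelial markers, none of which was at 0, spanned 422783 to 446529 in Control and 400479 to 452055 in NT-3N. Of the 6 markers 5 were lower in NT-3N and 1 higher, and Cdx2 was lower without overlap (log2 fold change -0.46, limma adjusted p = 0.54). The 3 goblet cell markers summed to 602397 to 661424 in Control and 476925 to 649670 in NT-3N. The part of epithelial content in the Klf4 and Klf5 values was not tested.

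Klf3 and Klf13, widely expressed members that act largely as repressors and regulators of lipid and lymphocyte genes, were similarly flat. The brighter Klf3 probe gave 14.39 and 14.29 in Control and 14.50, 14.40 and 14.19 in NT-3N, a log2 fold change of 0.027 with a standard error of 0.11. The second Klf3 probe gave 11.95 and 11.70 in Control and 11.93, 11.79 and 11.39 in NT-3N, a log2 fold change of -0.12 with a 95% interval that included 0. The probes differed in sign, but each overlapped between groups, and NT-3N replicate 3 was the lowest array on both. Klf13 had 11.21 and 11.16 in Control and 11.24, 11.30 and 11.07 in NT-3N. The 95% interval of its fitted difference of 0.025 ran from -0.22 to 0.27.

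Klf6 and Klf10, early response genes, varied mainly within the NT-3N group. Klf6, a factor of stromal and injury responses, had 13.99 and 13.93 in Control and 14.13, 14.26 and 13.83 in NT-3N. Replicates 1 and 2 lay above both Controls and replicate 3 below both. For Klf6 the fitted difference was 0.11 (limma adjusted p = 0.82), and without NT-3N replicate 3 it was 0.23, with an adjusted p of 0.68. Klf10, the TGF-beta-inducible early gene, had 11.54 and 11.43 in Control and 11.65, 12.20 and 11.36 in NT-3N. Replicate 2 stood well above the Controls, replicate 1 slightly above them and replicate 3 below. The SD of Klf10 was 0.076 (n = 2) in Control and 0.42 (n = 3) in NT-3N. The fitted difference of 0.26 (limma adjusted p = 0.76) was 0.025 without NT-3N replicate 2 and 0.44 without NT-3N replicate 3.

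The other Klf10 probe, designed on another transcript of the gene, showed the same array as highest. It gave 4.67 and 4.998 in Control and 4.83, 5.80 and 4.77 in NT-3N. This probe was dim, though well above background on all 5 arrays. The lowest log2 signal well above background lay between 3.33 and 3.70 on the arrays. On this probe the difference was 0.30 on the log2 scale, with a standard error of 0.37. Over the 9 genes NT-3N replicate 3 was the lowest NT-3N array for 6, namely Klf3, Klf6, Klf10, Klf11, Klf13 and Klf15, and NT-3N replicate 2 was the highest NT-3N array for 4, namely Klf4, Klf6, Klf10 and Klf13.

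Klf11, a TGF-beta-inducible relative of Klf10, had the largest fitted difference and the least certain one. Its log2 signals were 4.50 and 5.48 in Control and 5.88, 5.82 and 5.49 in NT-3N. The groups did not overlap, but the higher Control and the lowest NT-3N array were nearly equal. The fitted difference was 0.74 on the log2 scale (standard error 0.33, limma adjusted p = 0.54). Its 95% interval ran from 0.968-fold to 2.90-fold, so neither no change nor a rise of 2-fold lay outside it. The probe was dim, with between 10.1% and 25.6% of features below it on an array. The difference rested on Control replicate 1, without which it was 0.26 with an adjusted p of 0.94, whereas without Control replicate 2 it was 1.23 with an adjusted p of 0.51. With normexp background correction it was 0.31, with an adjusted p of 0.64.

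The promoters of Klf11 and Klf4, the members with the largest and the smallest fitted difference, are printed with that of Klf7, another member of the family described further on. Each line gives the 250 bases before the start site from RefSeq (GRCm38.p6), 5′ to 3′ on the strand of the gene, with capitals for the Sp-type letters GGGCGG and the Kruppel-type letters CACCC on either strand. The windows are chr12:24651121-24651370 (plus strand) for Klf11, chr4:55532476-55532725 (minus strand) for Klf4 and chr1:64121390-64121639 (minus strand) for Klf7.
Klf11: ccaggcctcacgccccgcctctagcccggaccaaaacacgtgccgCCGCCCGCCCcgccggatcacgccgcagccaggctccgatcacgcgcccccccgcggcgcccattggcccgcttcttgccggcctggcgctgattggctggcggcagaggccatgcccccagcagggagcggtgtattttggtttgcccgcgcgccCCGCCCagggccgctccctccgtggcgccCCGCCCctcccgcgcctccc
Klf4: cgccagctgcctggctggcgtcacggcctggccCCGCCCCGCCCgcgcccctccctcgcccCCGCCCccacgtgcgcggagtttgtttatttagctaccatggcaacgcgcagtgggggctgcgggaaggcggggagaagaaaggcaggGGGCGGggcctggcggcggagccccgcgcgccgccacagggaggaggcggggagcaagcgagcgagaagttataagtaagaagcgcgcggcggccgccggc
Klf7: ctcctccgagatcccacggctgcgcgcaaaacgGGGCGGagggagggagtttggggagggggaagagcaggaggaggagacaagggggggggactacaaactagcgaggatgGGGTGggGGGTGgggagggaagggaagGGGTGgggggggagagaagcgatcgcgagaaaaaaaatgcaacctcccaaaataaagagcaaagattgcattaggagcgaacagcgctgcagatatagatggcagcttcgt
With overlapping matches counted, GGGCGG occurred 4 times in the printed window of Klf11, 4 times in that of Klf4 and 1 time in that of Klf7, and CACCC occurred 3 times in that of Klf7 only among these windows. RefSeq promoters were matched for 7 members, without Klf5 and Klf10. In windows of 300 bases that reach past the start site, GGGCGG was held by 7 of the 7 and by 35.9% of all 27025 promoters, and CACCC by 4 of the 7 and by 56.7%. The STAT-type letters TTCNNNGAA, the same on both strands, were held by 0 of the 7 and by 8.47% of all promoters. These are matches of letters in a short window and say nothing about binding.

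Klf2 maintains quiescence of endothelium and naive lymphocytes. Its log2 signals were 10.61 and 10.13 in Control and 10.48, 10.63 and 10.69 in NT-3N. Control replicate 2 was the low array, and the other Control lay among the NT-3N arrays. For Klf2 the fitted difference was 0.23 (limma adjusted p = 0.69, 95% interval from 0.897-fold to 1.53-fold). Leaving out Control replicate 2 gave -0.010 (adjusted p = 0.99), and leaving out Control replicate 1 gave 0.46 (adjusted p = 0.58).

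Control replicate 2 also had the lowest summed signal of endothelial markers. Pecam1 and Vwf were lowest there, but Cdh5 was lowest on Control replicate 1, Kdr on NT-3N replicate 3 and Tek on NT-3N replicate 1. The summed signal of B cell markers was lowest on Control replicate 2 too, with Cd79a and Cd79b lowest there. Ms4a1 was instead lowest on Control replicate 1, with log2 signals of 4.95 and 6.53 in Control and 9.54, 9.13 and 9.51 in NT-3N (limma adjusted p = 0.059). The summed signal of all 4 B cell markers was 899 in Control replicate 2 and 3737 in Control replicate 1, and spanned 3572 to 4154 in NT-3N. The 4 T cell markers spanned 2495 to 2762 in Control and 2428 to 3183 in NT-3N, and the 5 endothelial markers 2307 to 2530 in Control and 2447 to 2854 in NT-3N. All of these 13 markers were well above background on every array. The part of lymphocyte or endothelial content in the Klf2 values was not tested.

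**Figure D2:**
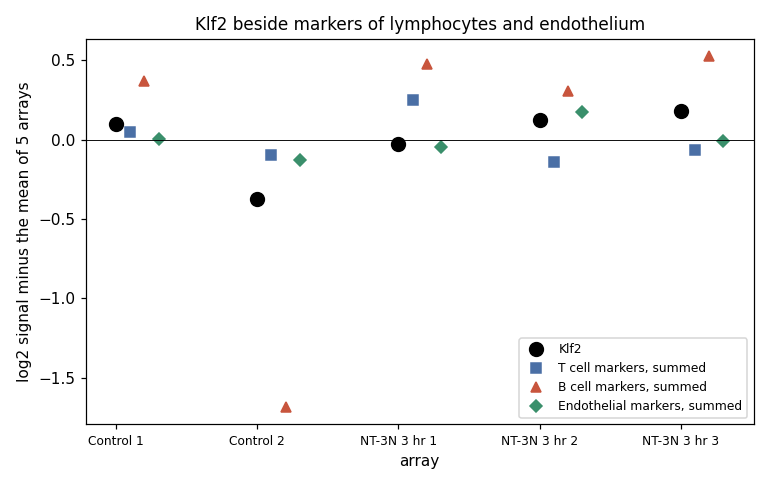
Log2 signal of Klf2 and of the summed B cell, T cell and endothelial markers on each array (horizontal axis), each as its difference from the mean of the 5 arrays (vertical axis). Klf2 and the summed B cell and endothelial markers are lowest on Control replicate 2, where Klf2 is 0.37 below its mean. The summed T cell markers are lowest on NT-3N replicate 2.

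Klf15, a regulator of amino acid, glucose and lipid metabolism that glucocorticoids induce, had the largest negative difference. Its log2 signals were 8.55 and 8.30 in Control and 8.57, 7.98 and 7.90 in NT-3N. NT-3N replicate 1 lay above both Controls and the other NT-3N arrays below both. For Klf15 the fitted difference was -0.28 on the log2 scale, with a standard error of 0.22 (limma adjusted p = 0.73, 95% interval from 0.567-fold to 1.20-fold). It was -0.49 without NT-3N replicate 1, with an adjusted p of 0.21. Leaving out NT-3N replicate 3 or Control replicate 1 gave -0.15 in each case, with adjusted p of 0.91 and 0.98.

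The summed signal of 4 fat markers, 3 of which were well above background on all arrays, spanned 5077 to 7870 in Control and 2091 to 6280 in NT-3N. The 3 arrays with the higher Klf15 signal were also the 3 with the higher fat marker sum, to which Cidec contributed most. Cidec and Lep separated the arrays in the same way, whereas Adipoq and Plin1 were lower in Control replicate 2 than in NT-3N replicate 2. The part of fat in the Klf15 values was not tested.

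Profiles close to those of Klf11 and Klf15 were sought among 16733 other genes well above background on all 5 arrays, by the Euclidean distance between log2 signals centred on the mean of the 5 arrays. Nearest to Klf11 were Ccl2, a monocyte chemokine, at a distance of 0.18, 2310016D03Rik at 0.21 and Dlgap5, a mitotic spindle gene, at 0.35. Nearest to Klf15 were Kcnh6, a potassium channel gene, at 0.062, Fkbp5, a glucocorticoid-induced chaperone gene, at 0.076 and H2al1m at 0.083. Fkbp5 also belongs to the list for KLF15 given further on, which was chosen with earlier results of these data known. Between the groups Fkbp5 differed by -0.31 on the log2 scale (limma adjusted p = 0.69), and the groups overlapped. With 5 arrays and this many genes, short distances are found for many profiles.

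By their 95% intervals, not adjusted for the number of genes, a change of 1.5-fold in either direction lay outside the interval for 5 of the 9, which were Klf3, Klf4, Klf5, Klf6 and Klf13. A change of 2-fold lay outside it for 8, all but Klf11. For Klf2 and Klf10 the interval reached a rise of 1.5-fold, and for Klf15 a fall of that size.

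No other family gene passed the test, and Klf7 had the smallest p. Of 8 further Kruppel-like factors 7 were tested, with 4 higher and 3 lower and 0 called, and Klf14 was on 0 arrays well above background. The median difference of the 7 was 0.23 on the log2 scale, beside -0.019 over all features. Klf7, a factor described mainly in neurons, had 11.17 and 11.11 in Control and 11.75, 11.90 and 11.64 in NT-3N. All NT-3N arrays lay above the Controls. Its log2 fold change of 0.62 (95% interval from 1.29-fold to 1.83-fold) had an unadjusted p of 0.00081 and a limma adjusted p of 0.14, so it was not called. Over 18 alternatives the difference stayed between 0.55 and 0.68, and the adjusted p ranged from 0.062 to 0.54. Klf9, a glucocorticoid-inducible relative of Klf13, had a difference of 0.23 (adjusted p = 0.56).

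Sp factors share the GC box with the Kruppel-like factors. Of 9 listed 6 were tested and 0 were called, with 4 higher, 2 lower and a median of 0.076. Sp2 had an unadjusted p of 0.013, with a log2 fold change of 0.39 and a limma adjusted p of 0.37. Sp1 and Sp3, the ubiquitous members, had differences of 0.12 and 0.080 on the log2 scale.

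**Figure D3:**
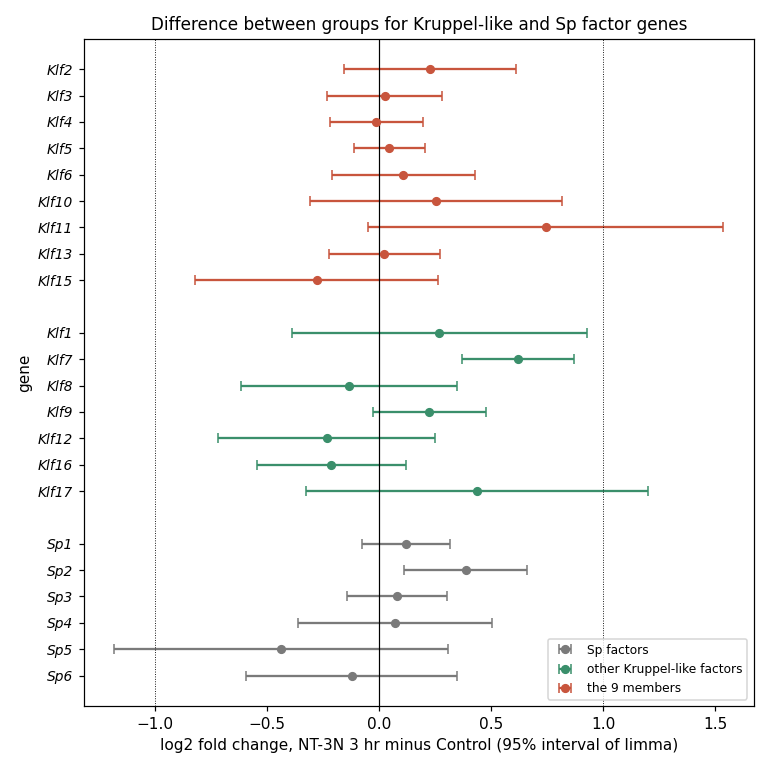
Log2 fold change of NT-3N 3 hr minus Control (horizontal axis) for the 9 members, 7 other Kruppel-like factors and 6 Sp factors (vertical axis), with 95% intervals of limma. Dotted lines mark a 2-fold change. The intervals of all 9 members include 0, and those of Klf7 and Sp2 do not.

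Genes that act on Kruppel-like factors were not called either. Of 16 cofactors and ligases 0 passed, and 1 had an unadjusted p under 0.05, against 9.62% of all features. That gene was Sap30, a subunit of the Sin3 corepressor complex (log2 fold change -0.37). Of 7 genes tested from the pathway of the kinase ERK5 and the MEF2 factors, which induces Klf2 and Klf4, 0 passed. Mapk7, which encodes ERK5, had a log2 fold change of -0.25, and Mef2c of 0.16. The median was -0.032 over the cofactors, with 7 higher and 9 lower, and -0.031 over the ERK5 and MEF2 genes, with 3 higher and 4 lower.

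Of 10 targets of KLF2 and KLF4 in endothelium and T cells, 0 were called and 2 had an unadjusted p under 0.05, against 9.62% of all features. Among the 2 was Edn1, which encodes endothelin-1, with a difference of 0.61 on the log2 scale (limma adjusted p = 0.22). Edn1 is known as a gene that KLF2 represses. Of genes that KLF2 activates, Nos3 and Thbd had differences of -0.16 and -0.29 and S1pr1 of 0.12, with limma adjusted p of 0.79, 0.71 and 0.84, and the groups overlapped for each. In sign 6 of the 10 were higher and 4 lower, with a median of 0.13. The list was chosen with earlier results of these data known, so the share of 2 in 10 is no measure of enrichment. Of 11 targets of KLF4, KLF5 and KLF6 in epithelium and stroma, 0 were called and 0 had an unadjusted p under 0.05, with 4 higher, 7 lower and a median of -0.080. Cdkn1a, a cell cycle inhibitor and target of KLF4 and KLF6, had a log2 fold change of -0.12. The summed signal of the 5 smooth muscle markers, all above background on every array, spanned 416913 to 435105 in Control and 311752 to 392056 in NT-3N, and that of the 5 fibroblast markers 31107 to 34402 and 34220 to 45519. The 4 myeloid markers spanned 46427 to 50356 and 39418 to 50367, and the 5 markers of enteric neurons and glia 8424 to 9638 and 5892 to 8980. The part of these cell types in the values of the lists was not tested.

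Of 8 TGF-beta genes linked to KLF10 and KLF11, 0 were called and 4 had an unadjusted p under 0.05, against 9.62% of all features. The list was chosen with earlier results of these data known, so this share is no measure of enrichment. It also depends on where the list was cut. Tgfb1 and Tgfbr1, placed in the list of KLF4, KLF5 and KLF6 targets, had differences of -0.080 and 0.0054. Smad4, the common partner of receptor-activated SMAD proteins, had a log2 fold change of 0.63 (limma adjusted p = 0.17) and the receptor gene Tgfbr2 of 0.40 (adjusted p = 0.40). The ligand gene Tgfb3 had -0.43 and Skil, which encodes a repressor of SMAD proteins, -0.35, with adjusted p of 0.50 and 0.51. Smad7, a feedback inhibitor, had -0.17. Over the 8 genes 5 were higher and 3 lower, with a median of 0.046.

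Of 10 genes listed for KLF15 and metabolism, 0 were called and 3 had an unadjusted p under 0.05, against 9.62% of all features. Of those 3, 1 was higher and 2 were lower. Over the 10 genes 3 were higher and 7 lower, with a median of -0.22. The list also held glucocorticoid-induced genes, among them Tsc22d3 and Fkbp5, so it is not a list of KLF15 targets alone. It was chosen with earlier results of these data known, so the share of 3 in 10 is no measure of enrichment. Pck1, a gene of gluconeogenesis, had a log2 fold change of -0.54 (limma adjusted p = 0.24) and Tsc22d3, a glucocorticoid-induced gene, of -0.46 (adjusted p = 0.32). Tat, tyrosine aminotransferase, had 0.44. On all 5 arrays Gpt, an alanine aminotransferase gene, had -0.38 (limma adjusted p = 0.67), and the groups overlapped. Without NT-3N replicate 1, where both Gpt and Klf15 were highest, Gpt was called lower (-0.65 on the log2 scale, limma adjusted p = 0.048). It was called under no other alternative. Gpt was named after its values were seen. In that fit 84 of 32580 features were called and 15.8% had an unadjusted p under 0.05. Klf15 itself was not called there (limma adjusted p = 0.21).

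**Figure D4:**
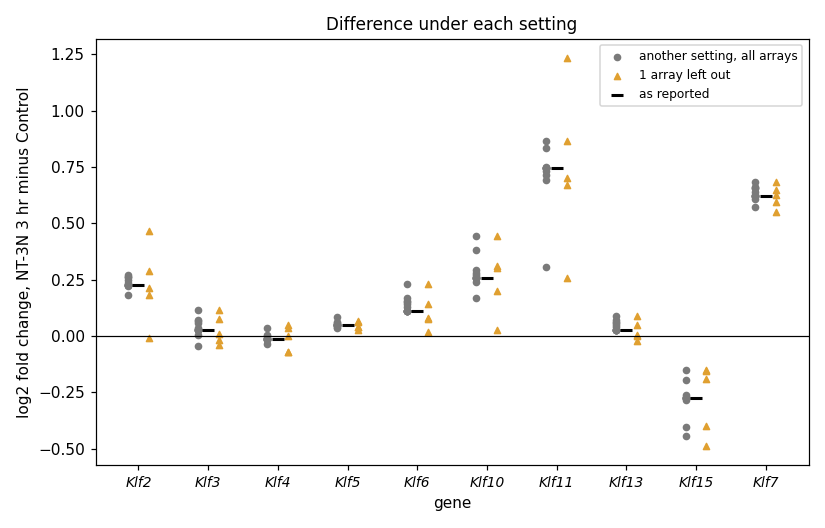
Log2 fold change of NT-3N 3 hr minus Control (vertical axis) for the 9 members and Klf7 (horizontal axis), as reported, under other settings on all arrays, and with 1 array left out. Klf11 spreads from 0.26 to 1.23 and Klf2 from -0.010 to 0.46 when 1 array is left out, while Klf5 and Klf7 move little.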

How the data were processed

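RNA of whole colon was hybridised to single-colour Cy3 arrays, all on 1 slide. Per the file headers, scans were quantified in Feature Extraction 11.0.1.1. Scanner files as deposited hold background-subtracted, detrended intensity not scaled between arrays, median spot and background intensity, and flags. The authors also deposited log2 values of 37380 probes, which tracked the quantile-normalized processed signal on each array and were used as an alternative.

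Control and outlier spots were left out, processed signals were taken to log2, repeat spots averaged and arrays were quantile-normalized. The log transform and quantile normalization follow the methods of the study, whose filter on flagged probes was not applied. Probes well above background on at least 2 arrays, with values on both Control and at least 2 NT-3N arrays, were kept. Accessions were matched to RefSeq symbols of GRCm38.p6, naming 32994 of 56605 probes. The brightest probe stood for a gene. NT-3N and Control were fitted in limma 3.58.1 under R 4.3.3 (lmFit, eBayes with intensity trend, two-sided, Benjamini-Hochberg over all 32917 features). Probes other than the brightest were fitted among all 41590 probes kept. The local-pooled-error test named in the methods gives no moderated interval and was an alternative. Limma and this test were also run on simulated arrays. Their spreads were drawn from limma's own fit, which favours limma, so no comparison of the tests is drawn from them. The number of arrays limits the precision. The study gives 3 injected mice and 2 untreated samples. Where samples do not stand for separate mice, p-values measure only the spread between samples, which may be technical.

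The members and lists were chosen with earlier results of these data known. All 9 members were described. From the further lists, genes called and up to 4 others with an unadjusted p under 0.05, well above background on all arrays, were named by size of change, except 1 that is not reported here. Other genes given for comparison were chosen after their values were seen. Alternatives covered scaling, background correction, source of values, filters, rule for probes, variance model, weights, test, replicate block and leaving out each array.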

Additional observations from a re-analysis of the deposited data

How the results depend on the processing

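Over 18 alternatives 0 of the 9 members were called in any, and of 162 combinations of member and alternative 152 kept their sign and 6 had an unadjusted p under 0.05. At that p 1 member was found with normexp and 1 with array quality weights, and between 0 and 1 without each array. The sign turned for Klf4 with median scaling (0.0064) and with array quality weights (0.037) and for Klf3 with the mean of the probes (-0.045). Without each array in turn the log2 fold change ranged from -0.010 to 0.46 for Klf2, -0.042 to 0.11 for Klf3, -0.073 to 0.049 for Klf4 and -0.023 to 0.091 for Klf13. Called features over the whole array numbered 47, and 2 with no filter on dim probes, 2 without the intensity trend, 177 with array quality weights, 348 with the local-pooled-error test and 0 with the replicate block, in which 2488 had an unadjusted p under 0.05. Without each array they ranged from 0 (without NT-3N replicate 3) to 116 (without Control replicate 2). Genes called from the list for KLF15 and metabolism ranged from 0 to 1. What causes these shifts was not tested.

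Shared replicate numbers were not treated as a pairing. Arrays numbered 1 deviated together with a correlation of 0.13 and those numbered 2 with 0.036. The deviations of the 2 Control arrays mirror each other, so these values cannot show whether arrays were paired. The replicate block called 0 members, and it gives the third NT-3N array a level of its own, so that array adds nothing to the fold changes. A fit with 1 Control takes its spread from the NT-3N group. Normexp was run on the spot median.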
